A study of Mus musculus with 9 samples.

Results

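The glial cell line-derived neurotrophic factor (GDNF) family was examined in the mouse trigeminal ganglion (TG) as 7 genes, the signalling receptor Ret, the co-receptors Gfra1, Gfra2 and Gfra3, and the ligands Gdnf, Artn (artemin) and Nrtn (neurturin). They were taken by gene name from the mRNA table, and all 7 were present among its 21809 genes. The TG libraries came from 8-week-old male wild-type C57BL/6 mice. Saline mice received 10 µl of saline into the temporomandibular joint (TMJ) on one side (saline replicates 1 to 3), and CFA mice received 10 µl of complete Freund's adjuvant at 5 mg/ml in the same way. CFA tissue was taken on day 3 (CFA3D replicates 1 to 3) or day 6 (CFA6D replicates 4 to 6). Each library pooled tissue punched unilaterally from the TG of 3 mice, so n = 3 pools per group. The saline libraries are labelled day 3, so on CFA6D the effects of CFA and of the later day cannot be told apart. Levels are FPKM per transcript as the authors deposited them, added up over the transcripts of a gene (gene sum). By the step of low values, about 30000000 to 42200000 read pairs stood behind a library.

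GDNF family ligands are secreted as dimers. Each prefers one GPI-anchored co-receptor, GDNF for GFRA1, neurturin for GFRA2, artemin for GFRA3 and persephin for GFRA4, and the bound pair activates the tyrosine kinase RET. Adaptors at the RET tail then switch on the Ras to ERK and the PI3K to AKT cascades. In sensory ganglia, RET with GFRA2 is typical of non-peptidergic nociceptors, GFRA3 of peptidergic nociceptors that carry the heat channel TRPV1, and the ligands come largely from target tissue and glia.

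The RET transcripts differ in their 3′ coding ends, and their sequences are shown because both forms are followed below. ENSMUST00000088790 encodes the short tail known as RET9 and ENSMUST00000032201 the long tail known as RET51. According to GENCODE M21 (GRCm38) they encode the same first 1064 amino acids and then 9 and 51 of their own, 1073 and 1115 in all. Lower case marks the last 30 coding bases of the shared exon, and capitals mark what follows up to the stop codon. The capitals lie at chr6:118155256-118155287 for the RET9 form and chr6:118153853-118154010 for the RET51 form, both on the minus strand.
RET9 form: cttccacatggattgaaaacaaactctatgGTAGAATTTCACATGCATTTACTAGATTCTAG
RET51 form: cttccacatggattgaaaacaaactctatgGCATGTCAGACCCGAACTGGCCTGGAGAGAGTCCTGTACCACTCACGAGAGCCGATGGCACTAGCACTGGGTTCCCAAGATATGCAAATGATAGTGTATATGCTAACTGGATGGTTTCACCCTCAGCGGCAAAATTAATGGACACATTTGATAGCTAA
The coding sequences of the main Gfra1 transcripts differ by a 15-base exon at chr19:58392573-58392587 (minus strand), in capitals here. ENSMUST00000169850 holds it and ENSMUST00000129100 skips it. These transcripts are called the forms with and without the exon below, and they also differ in total length (3224 and 4415 bases). Their levels are thus not a measure of the exon alone.
Gfra1 with the exon: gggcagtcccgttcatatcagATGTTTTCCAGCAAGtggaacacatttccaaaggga
Gfra1 without the exon: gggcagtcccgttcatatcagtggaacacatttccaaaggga

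The receptors were abundant and the ligands scarce in every library. FPKM is per length, so levels can be set side by side between genes. In saline, Ret lay highest at 70.45 ± 8.02 FPKM (SD, n = 3), and its mean over the 9 libraries exceeded 97.7% of the 16096 gene sums that averaged at least 0.1 FPKM. Gfra1 followed at 33.25 ± 5.09 FPKM. Gfra3 at 12.4 ± 1.73 FPKM and Gfra2 at 9.98 ± 0.921 FPKM had overlapping saline ranges. Among the ligands, Nrtn had 1.30 ± 0.668 FPKM. Gdnf at 0.0803 ± 0.0450 FPKM and Artn at 0.0640 ± 0.0440 FPKM overlapped each other. Both stayed under a mean of 0.1 FPKM over the 9 libraries, so 5 of the 7 genes were tested and these 2 are described by their values.

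**Figure D1:**
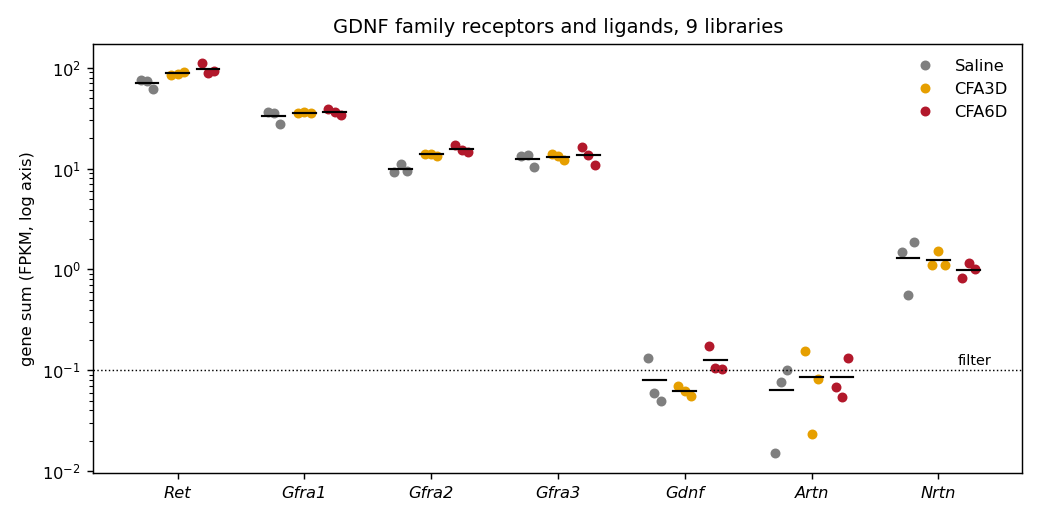
Gene sum of each of the 7 genes in FPKM on a log axis, with a point per library coloured by group and a bar at the group mean. Ret stands highest in every group, Gdnf and Artn scatter around the 0.1 FPKM filter (dotted line), and the saline points of Ret and Gfra2 lie below all CFA points.

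Gfra2 and Ret were higher after CFA on both days, and the other 3 tested genes did not pass. The comparison asks which genes of the ganglion respond to TMJ inflammation at each day, and a gene was called at the study's cutoff, an unadjusted p under 0.05, in a linear model of log2(FPKM + 0.1) over all gene sums (limma). On CFA3D, 2 of the 5 tested genes were called, both higher, where 4.45% of all gene sums were called and 3.65% were called as higher. On CFA6D the same 2 genes were called, both higher, where 11.1% were called and 8.22% as higher. No call passed a Benjamini-Hochberg adjusted p of 0.05 in limma, for these genes or for any other gene sum. Neither change reached the log2 fold change of 1 in size that 0.342% (CFA3D) and 0.584% (CFA6D) of gene sums passed together with the p cutoff.

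Gfra2, the neurturin co-receptor (ENSMUSG00000022103, chr14:70890120-70979838, plus strand), gave the clearest separation. Its level was 9.35, 11.03 and 9.55 FPKM in saline replicates 1, 2 and 3, then 13.97, 14.07 and 13.45 FPKM on CFA3D and 17.1, 15.2 and 14.5 FPKM on CFA6D. No library of one group overlapped another group, so the lowest CFA3D library lay above the highest saline library and the lowest CFA6D library above the highest CFA3D library. Groups that did not overlap made up 9.13% of all gene sums for CFA3D against saline, 16.2% for CFA6D against saline and 16.7% between the CFA days. On CFA3D the log2 fold change was 0.47 (SE 0.094, adjusted p = 0.997 in limma), a fold of 1.39 with a 95% confidence interval from 1.197 to 1.604. It ranked 6th by p among the 16096 gene sums. On CFA6D the log2 fold change was 0.64 (SE 0.094, adjusted p = 0.083 in limma), a fold of 1.56 (95% confidence interval 1.35 to 1.80), and its rank by p was 12. The step from CFA3D to CFA6D was 0.17 and was not called (95% confidence interval -0.04 to 0.38). Both calls against saline held under every other setting run, each library left out in turn included, with values from 0.34 to 0.55 on CFA3D and 0.53 to 0.71 on CFA6D.

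Ret, the shared signalling receptor (ENSMUSG00000030110, chr6:118151745-118197718, minus strand), was next. Saline replicates 1, 2 and 3 held 76.2, 73.8 and 61.3 FPKM, CFA3D 84.6, 87.1 and 91.5 FPKM, and CFA6D 110.2, 88.8 and 93.8 FPKM. All 6 CFA libraries lay above all saline libraries, and the CFA days overlapped. The log2 fold change was 0.32 on CFA3D (SE 0.110, adjusted p = 0.997 in limma) and 0.47 on CFA6D (SE 0.110, adjusted p = 0.161 in limma). As folds these were 1.25 (95% confidence interval 1.05 to 1.48) and 1.385 (95% confidence interval 1.17 to 1.64). CFA6D and CFA3D differed by 0.15, which was not called. The CFA3D call did not pass without saline replicate 3 (0.225) or without CFA3D replicate 3 (0.29), while the CFA6D call passed under every alternative.

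Gfra1, the GDNF co-receptor (ENSMUSG00000025089, chr19:58235604-58455909, minus strand), had 36.6, 35.7 and 27.4 FPKM in saline, 35.3, 36.5 and 35.3 FPKM on CFA3D and 39.0, 36.5 and 34.3 FPKM on CFA6D. Saline replicate 3 was its lowest library, and the groups overlapped. Its log2 fold changes were 0.11 on CFA3D and 0.15 on CFA6D, with 95% confidence intervals from -0.13 to 0.36 and from -0.10 to 0.40. Without saline replicate 3 the values were -0.02 on CFA3D and 0.01 on CFA6D. Gm16277, which overlaps Gfra1 on the opposite strand, had at most 0.0546 FPKM in a library.

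Gfra3, the artemin co-receptor (ENSMUSG00000024366, chr18:34689898-34720387, minus strand), had 13.3, 13.5 and 10.4 FPKM in saline, 13.8, 13.2 and 12.1 FPKM on CFA3D and 16.5, 13.6 and 10.9 FPKM on CFA6D. Saline replicate 3 was the lowest library and CFA6D replicate 4 the highest, and the 3 groups overlapped. Log2 fold changes were 0.08 (95% confidence interval -0.27 to 0.43) and 0.13 (95% confidence interval -0.22 to 0.48). Without saline replicate 3 the CFA3D value was -0.04, and without CFA6D replicate 4 the CFA6D value was -0.02.

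Because the co-receptors share the library, their ratios were compared within each library. Gfra2 lay below Gfra3 in each saline library, with a ratio of 0.703 to 0.916, and above it in each CFA library, with 1.009 to 1.115 on CFA3D and 1.03 to 1.33 on CFA6D. Gfra2 made up 18.1% ± 2.20 of the summed Gfra1, Gfra2 and Gfra3 FPKM in saline, 22.1% ± 0.0351 on CFA3D and 23.7% ± 0.498 on CFA6D (SD over 3 libraries). The share of Gfra1 was 59.6% ± 1.997, 57.1% ± 1.08 and 55.7% ± 1.88. Of 10 ratio comparisons with saline, the 8 that set Gfra2 or Ret against Gfra1 or Gfra3 did not overlap between groups, with differences from 0.21 to 0.51 on the log2 scale. The pairs were set by the 2 genes already called, so these ratios restate those calls and are not independent of them. Over all gene sums, the ratio to Gfra1 did not overlap in 4.9% on CFA3D and 12.5% on CFA6D, and the ratio to Gfra3 in 3.83% and 4.36%. Each of the 8 had an exact two-sided permutation p of 0.1, the smallest that 3 against 3 libraries allow. The ratio of Gfra2 to Ret overlapped between groups on both days (exact permutation p = 0.3 each).

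**Figure D2:**
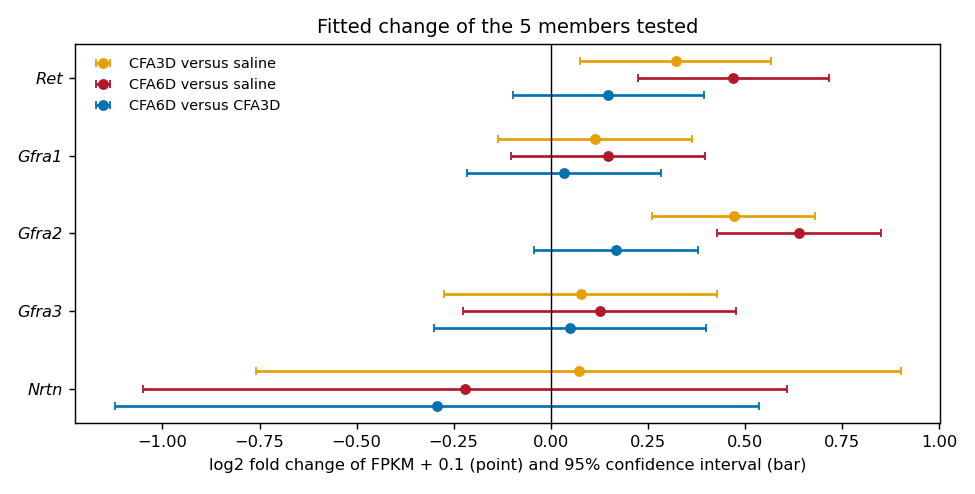
Log2 fold change of FPKM + 0.1 for the 5 tested genes (points) with 95% confidence intervals (bars), for CFA3D and CFA6D against saline and for CFA6D against CFA3D. The intervals of Ret and Gfra2 lie above 0 on both days, from 0.08 and 0.26 on CFA3D, and those of Gfra1, Gfra3 and Nrtn span 0.

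The ligands showed no called difference. Nrtn (ENSMUSG00000039481, chr17:56751325-56757530, minus strand) had 1.48, 0.556 and 1.85 FPKM in saline, 1.10, 1.53 and 1.10 FPKM on CFA3D and 0.822, 1.15 and 1.009 FPKM on CFA6D. The saline libraries spread furthest, with an SD of 0.668 FPKM against 0.246 on CFA3D and 0.164 on CFA6D, and about 17.1 to 76.2 read pairs stood behind each library. Its log2 fold changes were 0.07 and -0.22, with 95% confidence intervals from -0.76 to 0.90 and from -1.05 to 0.61, so changes of the size seen in Gfra2 were not detectable for Nrtn at this depth and spread. Without saline replicate 2, the lowest saline library, the CFA6D value was -0.695 and was called (adjusted p = 0.461 in limma), and without saline replicate 3 it was 0.09. The CFA3D value was -0.40 without saline replicate 2 and -0.07 without CFA3D replicate 2.

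Gdnf (ENSMUSG00000022144) lies on the plus strand at chr15:7810846-7837575. Its saline libraries held 0.132, 0.0589 and 0.04997 FPKM, followed by 0.0701, 0.0621 and 0.0557 FPKM on CFA3D and 0.173, 0.105 and 0.104 FPKM on CFA6D. About 6.49 to 25.1 read pairs per library lay behind these values. The CFA6D libraries lay above the CFA3D libraries, and both groups overlapped with saline. Artn (ENSMUSG00000028539, chr4:117926162-117929763, minus strand) had 0.0150, 0.0772 and 0.0999 FPKM in saline, 0.155, 0.0233 and 0.0815 FPKM on CFA3D and 0.0688, 0.0541 and 0.132 FPKM on CFA6D. These were about 1.00 to 14.2 read pairs, and the 3 groups overlapped. With no filter on low values, Gdnf differed from saline by -0.12 and 0.35, and Artn by 0.16 and 0.19. Gdnf was then higher on CFA6D than on CFA3D by 0.47 (adjusted p = 0.695 in limma).

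Transcripts were examined because the study tested transcripts and the receptors have several. Of the 21 annotated transcripts of the 7 genes in the mRNA table, 13 had a mean of at least 0.1 FPKM. On CFA3D, 4 of these 13 were called (4.68% of 66562 transcripts tested), 1 without saline replicate 3, without CFA3D replicate 3 or with the replicate number as a block. On CFA6D 3 of 13 were called (6.81%). Between the CFA days 1 of 13 was called, beside 5.42% of all transcripts. Adjusted p-values in limma stayed above 0.2 for all 13.

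Both RET tails were higher after CFA. The RET9 form carried most of the gene, with 66.6, 63.9 and 53.3 FPKM in saline, 73.1, 75.6 and 78.6 FPKM on CFA3D and 94.2, 75.9 and 80.1 FPKM on CFA6D. The RET51 form had 9.66, 9.96 and 8.03 FPKM in saline, 11.5, 11.6 and 12.8 FPKM on CFA3D and 16.0, 12.9 and 13.7 FPKM on CFA6D. For both, all CFA libraries lay above all saline libraries. Groups did not overlap in 9.48% of all transcripts on CFA3D and 12.2% on CFA6D. Log2 fold changes were 0.31 and 0.45 for the RET9 form, and 0.38 and 0.62 for the RET51 form. The long tail took 12.7 to 13.5% of the Ret sum in saline, 13.3 to 14.1% on CFA3D and 14.5 to 14.6% on CFA6D. Its share was 1.45 percentage points higher on CFA6D than in saline without overlap (exact permutation p = 0.1, the smallest possible). On CFA3D it was 0.537 points higher with overlap (exact permutation p = 0.2). Shares of both RET forms, of Gfra1 with and without the exon and of full-length and shorter Gfra2 were tested on both days. How often such shares did not overlap over all genes was not computed.

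The full-length Gfra2 transcript ENSMUST00000022699, with 464 codons, held 88.9 to 95.2% of the Gfra2 sum and had 8.70, 9.81 and 9.09 FPKM in saline, 13.1, 13.2 and 12.3 FPKM on CFA3D and 15.9, 13.99 and 13.6 FPKM on CFA6D. Its log2 fold changes were 0.48 (adjusted p = 0.744 in limma) and 0.65 (adjusted p = 0.207). The shorter ENSMUST00000227697, which lacks 133 of these codons, had 0.444 to 1.21 FPKM over the 9 libraries, with changes of 0.46 and 0.58. The mean share of the full-length form was 92.4% in saline, 92.9% on CFA3D and 93.1% on CFA6D, with overlapping libraries (exact permutation p = 0.8 on each day).

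In Gfra1, the form with the 15-base exon held 59.5 to 70.4% of the sum, at 16.3 to 24.3 FPKM in saline, 24.0 to 24.8 FPKM on CFA3D and 21.97 to 25.85 FPKM on CFA6D. The form without it held 14.5 to 16.0%. The share of the form with the exon was 63.2% ± 3.47 in saline and 68.2% ± 1.96 on CFA3D (SD, n = 3). This was 5.08 percentage points higher on CFA3D without overlap (exact permutation p = 0.1, the smallest possible). The gap was narrow, from 66.32% in saline replicate 1 to 66.56% in CFA3D replicate 2. Saline replicate 3 was lowest at 59.46%, and the difference was not recomputed without it. On CFA6D the share of this form was 64.8% ± 1.31 with overlap (exact permutation p = 0.5). As for Ret, overlap of shares over all genes was not computed. Neither level was called, with changes of 0.23 and 0.19 for the form with the exon and 0.11 and 0.14 for the form without it. A partial transcript of 3 exons, ENSMUST00000131877, held 10.5 to 15.5%. Another partial transcript, ENSMUST00000135730, with 0.098 to 0.992 FPKM, was called lower on CFA3D (-1.20, adjusted p = 0.989 in limma) and was at -0.43 on CFA6D.

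**Figure D3:**
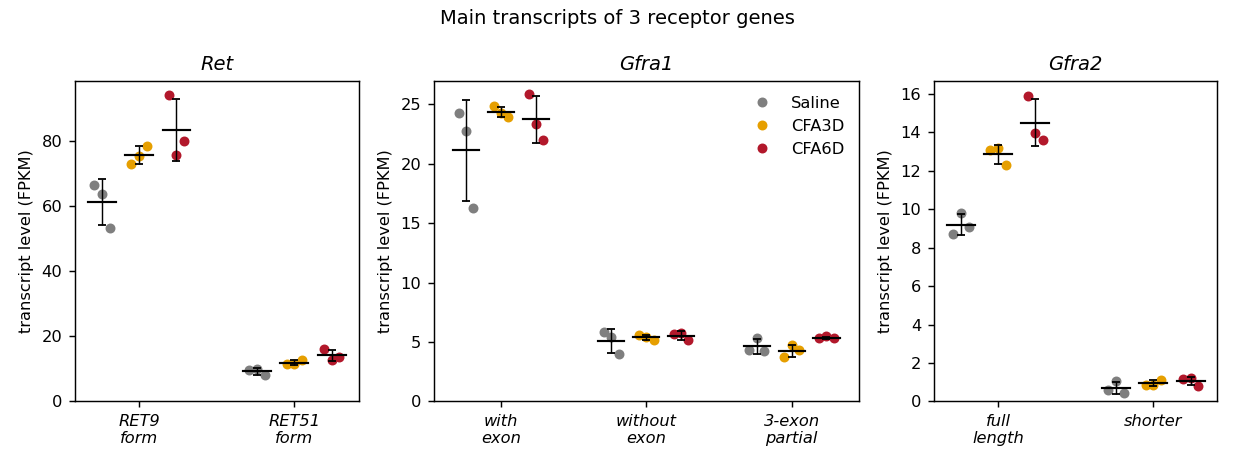
FPKM of the transcripts that hold over 5% of Ret, Gfra1 and Gfra2, with a point per library, a bar at the group mean and whiskers of 1 SD (n = 3). The RET9 and RET51 forms and full-length Gfra2 have all CFA libraries above all saline libraries, and the Gfra1 forms with and without the 15-base exon overlap between groups.

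In bulk libraries more cells of a type and more RNA per cell cannot be told apart, so a neuron list of 15 genes (such as Rbfox3, Tubb3, Uchl1 and Scn10a) was read beside the receptors. No gene of this list was at 0 in any library. Its summed level was 2638 to 3251 FPKM in saline, 3064 to 3648 on CFA3D and 3211 to 3906 on CFA6D. The lowest was saline replicate 3, which also held the most pituitary RNA (below). Saline replicates 1 and 2 stood at 3251 and 3007 FPKM. The median log2 fold change of the list was 0.19 on CFA3D and 0.18 on CFA6D, against 0.05 and 0.03 over all gene sums. The list was not recomputed without saline replicate 3. On CFA3D 4 of 15 were called higher and on CFA6D 5 of 15, with none lower, beside 3.65% and 8.22% of all gene sums called higher. Gfra2 had a larger log2 fold change than all 15 genes on CFA3D and than 14 of 15 on CFA6D, where Rbfox3 (0.67) exceeded it. Ret exceeded 14 and 12 of the 15.
When each library was scaled to the median of this list, Ret remained called at 0.19 on CFA3D and 0.36 on CFA6D (adjusted p = 0.546). Gfra2 was at 0.34 and 0.53 (adjusted p = 0.572). Relative to the list median, Ret lay at -1.38, -1.36 and -1.38 on the log2 scale in saline, between -1.25 and -1.08 on CFA3D and between -1.06 and -0.95 on CFA6D, so the 3 groups did not overlap. Gfra2 lay between -4.39 and -4.05 in saline and between -4.01 and -3.60 in the CFA libraries, again without overlap but by a narrow gap. How many of all gene sums were called or did not overlap on this scale was not computed, so these separations have no background beside them. For Gfra1 and Gfra3 the scaled values on CFA3D turned to -0.02 and -0.06.

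**Figure D4:**
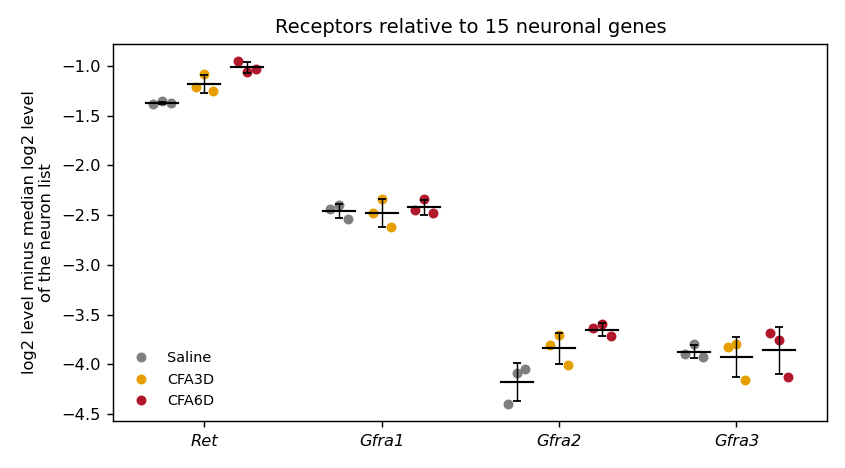
Log2 level of each receptor minus the median log2 level of 15 neuronal genes in the same library, with a point per library, a bar at the group mean and whiskers of 1 SD (n = 3). Ret lies at -1.36 or below in the saline libraries and at -1.25 or above in the CFA libraries, Gfra2 at -4.05 or below in saline and -4.01 or above after CFA, and Gfra1 and Gfra3 overlap between groups.

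Several libraries held RNA of other tissues. The summed level of 8 pituitary genes (Lhb and Fshb at 0 in some libraries) was 10710 FPKM in saline replicate 3 and 32.7 to 1148 in the others, and that of 7 neutrophil and marrow genes was 2630 FPKM in CFA6D replicate 6 and 23.6 to 132.2 elsewhere. Saline replicate 2 stood apart in 8 skeletal muscle genes (173.2 FPKM, 1.40 to 73.8 in the others), 6 adipocyte genes (111.5 FPKM, at most 4.60 in the others, with Adipoq, Cidec, Lep and Ucp1 at 0 in some) and 6 erythroid genes (5789 FPKM, 1667 to 3862 in the others). Without this library Gfra2 stood at 0.55 and 0.71 and Ret at 0.36 and 0.51 on CFA3D and CFA6D. Saline replicate 3 was also the lowest library for Ret, Gfra1 and Gfra3, and the part of its pituitary RNA in those values was not tested beyond leaving the library out. Without it, Gfra2 stood at 0.44 on CFA3D and 0.61 on CFA6D and Ret on CFA6D at 0.37, all called, while Ret on CFA3D stood at 0.225 and was not called. Without CFA6D replicate 6, CFA6D values were 0.69 for Gfra2 and 0.50 for Ret. Ganglion glia were present throughout, and of 9 satellite glia genes none was at 0 in a library and 0 were called on either day. Their medians were 0.07 on CFA3D and -0.26 on CFA6D, where 0 of 9 values were positive. How many of all gene sums were positive was not computed. Of 10 myelin genes 0 were called on CFA3D and 1 on CFA6D. Of 8 fibroblast genes 0 were called on CFA3D and 3 on CFA6D, all lower, with medians of 0.03 and -0.38, and summed levels of 444.8 to 566.0 FPKM in saline, 443.4 to 676.9 on CFA3D and 337.0 to 552.3 on CFA6D. Of 8 macrophage genes 0 and 1 were called, the 1 lower, with medians of -0.06 and -0.35 and summed levels of 93.5 to 115.0, 79.1 to 140.5 and 54.9 to 88.6 FPKM. Beside the glia, myelin, fibroblast and macrophage counts, 4.45% of all gene sums were called on CFA3D and 11.1% on CFA6D. No fibroblast or macrophage gene listed was at 0 in a library, and their part in the receptor values was not tested.

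Neuron classes were read through 3 lists, which were also chosen with earlier results of these data known. Of 12 genes of non-peptidergic nociceptors, a class in which RET and GFRA2 are typical, 2 were called higher on CFA3D. These 2 were Lpar3 and Lpar5, lysophosphatidic acid receptors. On CFA6D 6 were called higher, and none was called lower on either day. The medians were 0.14 and 0.30, where 3.65% and 8.22% of all gene sums were called higher. The 6 were Mrgprd, the receptor that marks this class (0.51), Plxnc1 (0.41), Scn11a (0.38), Lpar3 (0.41), Lpar5 (0.45) and Cd55 (0.32). Mrgprd went from 10.6 FPKM in saline to 12.9 and 15.1 FPKM. Gfra2 had a larger log2 fold change than each of these 12 genes on both days. The same held against each of the 7 peptidergic and 8 low-threshold genes below.
Of 7 peptidergic genes, 2 were called higher on each day (beside the same 3.65% and 8.22%), with medians of 0.29 and 0.16. Trpv1 was at 0.29 and 0.21, and Calca, which encodes CGRP, at 0.36 and 0.10, neither of them called. Of 8 low-threshold genes, 0 were called on CFA3D and 3 on CFA6D, beside 4.45% and 11.1% of all gene sums, with Nefh (0.34) and Maf (0.24) higher and Pvalb (-0.45) lower. Ntrk2, the BDNF receptor, was at -0.02 and 0.08. No gene of these lists had an adjusted p under 0.05 in limma.

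Of the 4 remaining family members, Gfra4 and Pspn were tested and neither was called. Gfra4, the persephin co-receptor, had 2.87 ± 0.367 FPKM in saline, 3.03 ± 0.251 on CFA3D and 2.89 ± 0.132 on CFA6D (SD, n = 3). Its ligand Pspn had 0.472 ± 0.189, 0.513 ± 0.282 and 0.420 ± 0.0626 FPKM. Gdf15 and Gfral averaged under 0.1 FPKM and were not tested. Gdf15, a distant relative whose receptor GFRAL also signals through RET, stayed at 0.193 FPKM or below, and Gfral at 0.0245 FPKM or below.

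Around RET, 53 genes in 4 lists were tested, namely co-receptors and processing genes, adaptors, kinases and response genes. With Gfra4 and Pspn, 4 of 55 were called on CFA3D, all higher, and 13 of 55 on CFA6D, 10 higher and 3 lower. These are 7.27% and 23.6%, beside 4.45% and 11.1% of all gene sums. The lists were chosen with earlier results of these data known, so a higher share in them is not independent evidence. The median log2 fold changes were 0.11 and 0.08, and no adjusted p was under 0.05 in limma.
Among 21 adaptors, Dok4, which docks to phosphorylated RET, was called higher on both days (0.26 and 0.27), from 52.7 FPKM in saline to 62.85 and 63.15 FPKM. On CFA6D the adaptors Grb2 (0.70), Shc2 (0.36) and the Ras activator Sos1 (0.26) were higher and the adaptor Crk (-0.60) lower. Grb2 went from 13.5 FPKM in saline to 21.7 FPKM on CFA6D.
Of 15 kinases and GTPases of the cascades, 0 were called on CFA3D, and all 15 values were positive. All 15 values of the neuron list were positive on CFA3D as well. The share of positive values over all gene sums was not computed. On CFA6D the PI3K subunit Pik3r1 (0.25) was higher.
Among 10 response genes, Etv5, an ETS transcription factor induced by RET signalling in other tissues, was called higher on both days (0.37 and 0.43). It had 13.35, 17.5 and 18.0 FPKM on average in saline, CFA3D and CFA6D. Spred2, an inhibitor of the Ras to ERK cascade, was also higher on both days (0.31 and 0.32). Etv4, a relative of Etv5, was lower on CFA6D (-0.46).
Of 7 co-receptors and processing genes, Itgb1 was called higher on CFA3D (0.23). On CFA6D, Sdc3, a heparan sulfate proteoglycan that binds GDNF, was higher at 0.34 and Sorl1, a sorting receptor for GDNF, at 0.29, while the protease Plau was lower (-0.45). Between the CFA days, 3 genes were higher on CFA6D (Sorl1, Frs3 and the neutrophil protease gene Mmp9) and 3 lower (Plau, Gab1 and Spry2), 10.9% of the 55 beside 7.39% of all gene sums. The neutrophil and marrow list moved with Mmp9, with 6 of its 7 genes called higher on CFA6D than on CFA3D. Over all gene sums, 7.39% were called between the days in either direction. Mmp9 had 1.82 to 34.1 FPKM on CFA6D (SD 18.24) and 0.446 to 1.64 FPKM on CFA3D. The summed list stood at 2630 FPKM in CFA6D replicate 6 and at 132.2 and 119.5 FPKM in CFA6D replicates 4 and 5. The part of this list in the Mmp9 value was not tested.

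**Figure D5:**
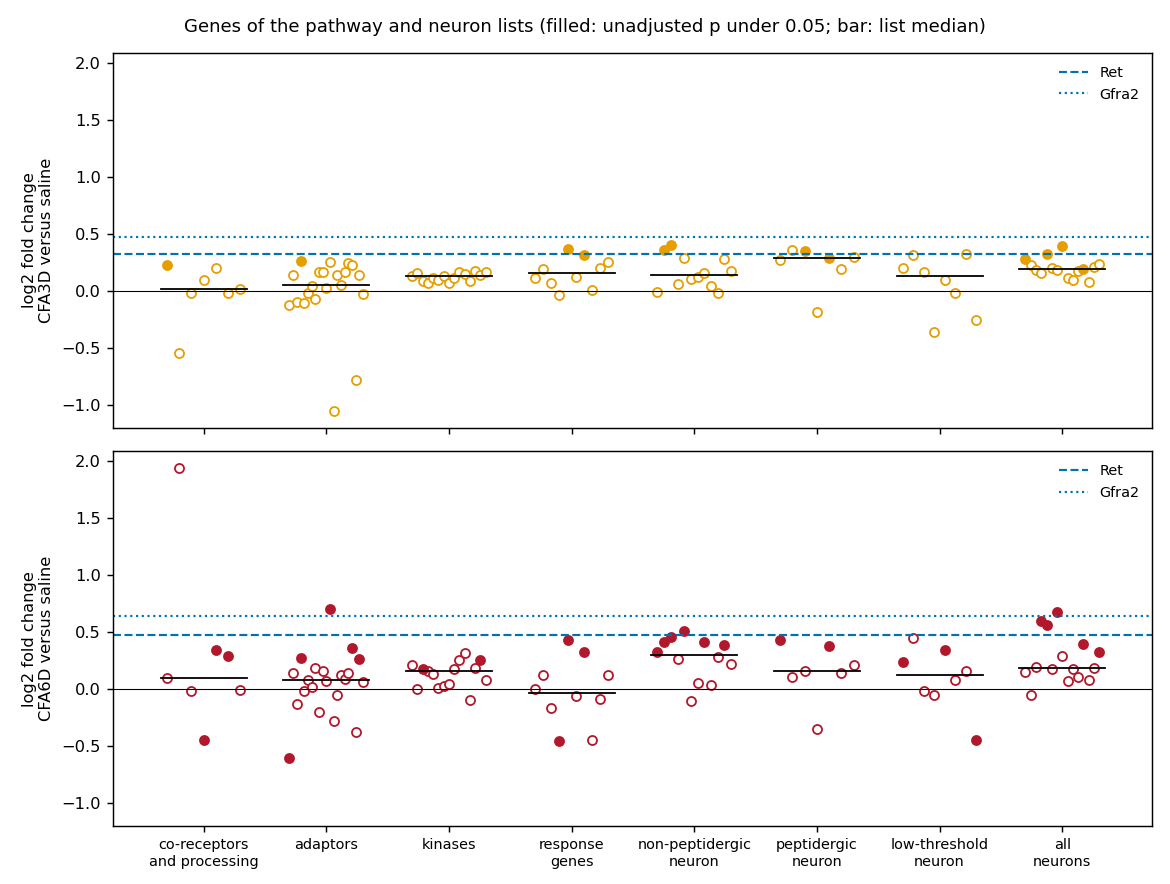
Log2 fold change on CFA3D (upper) and CFA6D (lower) for each gene of 4 pathway lists and 4 neuron lists, filled where the unadjusted p is under 0.05, with the list median as a bar and the values of Ret (dashed) and Gfra2 (dotted) as lines. On CFA3D no listed gene reaches the Gfra2 line at 0.47, and on CFA6D the line at 0.64 is passed by Grb2, Rbfox3 and Mmp9.

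The gene sums most like each receptor over the 9 libraries were listed as a description among 13175 with a mean of at least 1 FPKM. All share the same libraries and depth, and the highest of so many values carry no p. For Ret they were Sult4a1 (Pearson r = 0.991, Spearman rho = 0.967), Ttc9 (0.989 and 0.983) and Shisal1 (0.984 and 0.900). For Gfra2 they were Prdm12, a transcription factor needed for nociceptors to form (0.961 and 0.950), Arl8a (0.947 and 0.883) and Nptx2 (0.941 and 0.767). Gfra1 was most like Tspan18 (0.965 and 0.900), Pdlim7 (0.949 and 0.617) and Scin (0.948 and 0.800), and Gfra3 like Dcaf6 (0.936 and 0.767), Ephb6 (0.927 and 0.900) and Fbln5 (0.920 and 0.750).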

How the data were processed

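FPKM, a fragment count scaled to transcript length and library size, was deposited for each transcript and library in 3 tables, of which the mRNA table was used (102122 transcripts). The methods give trimming with Trimmomatic 0.32, mapping to GRCm38.72 and expression in CLC Genomics Workbench 7.0.2, whereas the submitters' processing notes list Bowtie 0.12.2 and mm8. The tool behind the FPKM is not given in the sources used here. The methods state stranded libraries after ribosomal RNA depletion, and the sample labels name another TruSeq kit. All columns were used (0 left out).

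Transcripts were joined by identifier to GENCODE M21 (101539 matched) and FPKM added up per gene name. The worth of 1 read pair came from the pile-up of low FPKM times length, and read numbers are approximate, since values below 1 read pair occur. Intervals cover the spread between libraries. Features averaging 0.1 FPKM or more (16096 gene sums and 66562 transcripts) entered the test as log2(FPKM + 0.1) with limma 3.58.1 (R 4.3.3), with 3 groups, all 9 libraries, trended empirical Bayes moderation and Benjamini-Hochberg adjustment. Calls rest on the unadjusted p, and adjusted p-values are printed. Fold changes on this scale understate those of low genes. Nothing in the labels says that libraries are more than separate pools, so p-values measure the spread between these pools. The fit was tested on simulated data with shifts larger than the changes of Ret and Gfra2, so that run does not cover changes of their size.

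Alternatives were pseudocounts of 0.01 and 1, a mean of at least 1 FPKM, no filter, quantile normalization, scaling to the neuron list, fits of only the groups compared, the highest transcript, approximate reads + 1 at equal depth, a replicate block and leaving out each library. Members and lists were chosen with earlier results of these data known. Genes are named by rule, namely all members, pathway genes with an unadjusted p under 0.05 and a few class markers. Some genes that these rules name are not reported here. Other named list genes were chosen after their values were seen. Other steps used Python 3.11.15, numpy 2.4.6, pandas 2.3.3, biopython 1.88 and matplotlib 3.10.9.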

Additional observations from a re-analysis of the deposited data

Results flagged for a closer look

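Gdnf stood on opposite sides of the saline mean on the 2 days. Its 3 CFA3D libraries lay below the saline mean of 0.0803 FPKM and its 3 CFA6D libraries above it, with a CFA6D mean 2.03 times the CFA3D mean. The opposite sides rest on saline replicate 1 (0.132 FPKM), without which the saline mean is 0.0544 FPKM and all CFA3D libraries lie above it. This difference was not tested at the main filter, because the gene averaged under 0.1 FPKM, and between 6.49 and 25.1 read pairs stood behind a library.

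The 3-exon partial Gfra1 transcript ENSMUST00000131877 differed between the CFA days in the test of that difference, higher on CFA6D by 0.34 on the log2 scale (adjusted p = 0.918 in limma). It had 3.71, 4.73 and 4.30 FPKM on CFA3D and 5.34, 5.47 and 5.31 FPKM on CFA6D, while saline libraries lay between 4.24 and 5.37 FPKM. When any CFA library other than CFA3D replicate 2 was left out, 0 transcripts of the 7 genes were called between the days. Of all transcripts tested, 5.42% passed the same cutoff between the days.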

How the results depend on the processing

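Of 275 recomputed log2 fold changes of the 5 tested genes, 258 kept their direction and side of the cutoff, 14 changed sign, 2 fell below the cutoff and 1 passed it. None of the sign changes was in Ret or Gfra2. Leaving out each library gave 1 to 2 called genes on CFA3D, 2 to 3 on CFA6D and 0 between the days, and 1 to 6, 3 to 5 and 0 to 2 called transcripts. With no filter 1 gene (Gdnf) and 2 transcripts were called between the days. With scaling to the neuron list, CFA3D values turned to -0.0187 (Gfra1), -0.0563 (Gfra3) and -0.0614 (Nrtn). Between the days Gfra1 was at -0.041 by its highest transcript and -0.00994 by approximate reads. Ranges over the libraries left out that crossed 0 were, on CFA3D, -0.0189 to 0.19 (Gfra1), -0.0436 to 0.143 (Gfra3) and -0.402 to 0.385 (Nrtn), on CFA6D, -0.0182 to 0.279 (Gfra3) and -0.695 to 0.0924 (Nrtn), and between the days, -0.013 to 0.0791 (Gfra1) and -0.0949 to 0.202 (Gfra3).
Replicate numbers are shared by saline and CFA3D alone, and deviations of same-numbered libraries correlated at 0.06, -0.129 and 0.042, so the numbers were not taken as pairs. With the number as a replicate block, 2 genes and 1 transcript were called on CFA3D, and the cause was not tested. Gdnf and Artn had at most 25.1 and 14.2 read pairs in a library.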
